A study of Homo sapiens with 25 samples.

Results

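The transcripts described here encode 40 enzymes and regulators of nucleotide and polyamine synthesis, listed by name: 14 of purine synthesis and salvage, 8 of pyrimidine synthesis and salvage, 2 nucleoside diphosphate kinases, 8 of deoxynucleotide synthesis and 8 of polyamine metabolism. Of the 40, 39 were measured by a probe set that carries 1 gene symbol, and all 39 were among the 12643 genes tested out of 19775 with such a probe set. UCK2, the uridine-cytidine kinase, was only on probe sets that carry several symbols and was not analysed here. A gene was tested when its log2 value was above 4 on at least 3 of the 25 arrays.

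The series measured total RNA on 25 Affymetrix arrays in 8 groups, from human cells grown in dishes and given erlotinib, an inhibitor of the EGFR kinase, at 10 µM. BT20 is a breast cancer line rich in EGFR and gave 4 arrays at 0 min and 3 arrays each at 30 min, 6 h and 24 h after the drug. MDA-MB-453, a breast cancer line with high ERBB2, and a line labelled only MCF gave 3 arrays each at 24 h and at 0 min. The series has no untreated 24 h group, so the drug and the time in culture cannot be told apart. All groups share the same medium with serum, and the labels name no genetic change in any line. They do not say whether replicates were separate cultures, so p-values measure the spread between these arrays, which may be technical. Values are log2 GCRMA values, and differences are in log2 units with the standard error (SE) of the fit after ±.

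Cells make purine and pyrimidine nucleotides from small precursors, among them amino acids and carbon dioxide, and a ribose phosphate, or recover them from free bases and nucleosides. Ribonucleotide reductase turns ribonucleotides into deoxynucleotides for DNA. Polyamines (putrescine, spermidine, spermine) are made from ornithine, starting with ODC1, and are acetylated for export or breakdown by SAT1. Several of these genes, ODC1 among them, are classic targets of the growth factor-induced transcription factor MYC.

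Markers of the lines were read at 0 min. EGFR had a mean of 12.38 in BT20 at 0 min, against 3.53 in MDA-MB-453 and 3.52 in MCF, KRT5 averaged 12.37 in BT20, ERBB2 averaged 11.07 in MDA-MB-453, and ESR1 averaged 12.47 in MCF. The markers were not confined to 1 line: ESR1 averaged 8.66 in BT20 and 2.61 in MDA-MB-453, ERBB4, listed for MDA-MB-453, averaged 8.15 there and 10.71 in MCF, and TFF1, listed for MCF, averaged 13.49 there and 8.49 in MDA-MB-453. PGR averaged 8.11 in MCF and was below 4 in the other lines. DUSP6 and SPRY4 are feedback inhibitors whose transcripts serve as a readout of EGFR signalling. They averaged 3.27 and 2.49 in BT20 at 24 h, against 9.19 and 7.25 at 0 min. The 24 h means are below 4, so no size is given for their change. Of 7 markers of blood, endothelial and fibroblast cells, 2 were above 4 on at least 3 arrays; the highest was COL1A1, with values up to 11.35. The upper quartile per array ran from 7.27 to 7.32 in MCF (6 arrays, labelled Part 2) and from 7.65 to 7.81 in the other lines (19 arrays, labelled Part 1), so the levels of members in MCF are not set against those of the other lines. One array, replicate 4 of BT20 at 0 min, correlated with the 6 h arrays at r = 0.99 to 0.992 and with the other 0 min arrays at r = 0.971 to 0.975. Among the 39 members, 27 had a replicate 4 value nearer to the 6 h mean than to the mean of replicates 1 to 3. The same share over all genes was not computed. Because of this array, BT20 results are given also from a second fit. In it 6 h is measured against replicate 4 alone and 30 min and 24 h against replicates 1 to 3.

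In BT20 at 24 h, 16 of the 39 members fell and 0 rose (limma on all 25 arrays, Benjamini-Hochberg adjusted p under 0.05 over 12643 genes). Over all genes tested, 13.9% fell and 18.9% rose. Of the members, 32 were lower and 7 higher at 24 h, against 5927 lower and 6716 higher of all 12643 genes. Their median change was -0.31, against 0.03 for all genes. Without replicate 4 in the reference, 17 members fell and 1 rose, against 15.4% and 21.3% of all genes, and 15 fell in both fits. With the BT20 arrays fitted on their own, 18 fell and 1 rose, against 18.3% and 24.1% of all genes. Each array holds the RNA of a whole dish, so fewer cells with a transcript and less of it per cell cannot be told apart.

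**Figure D1:**
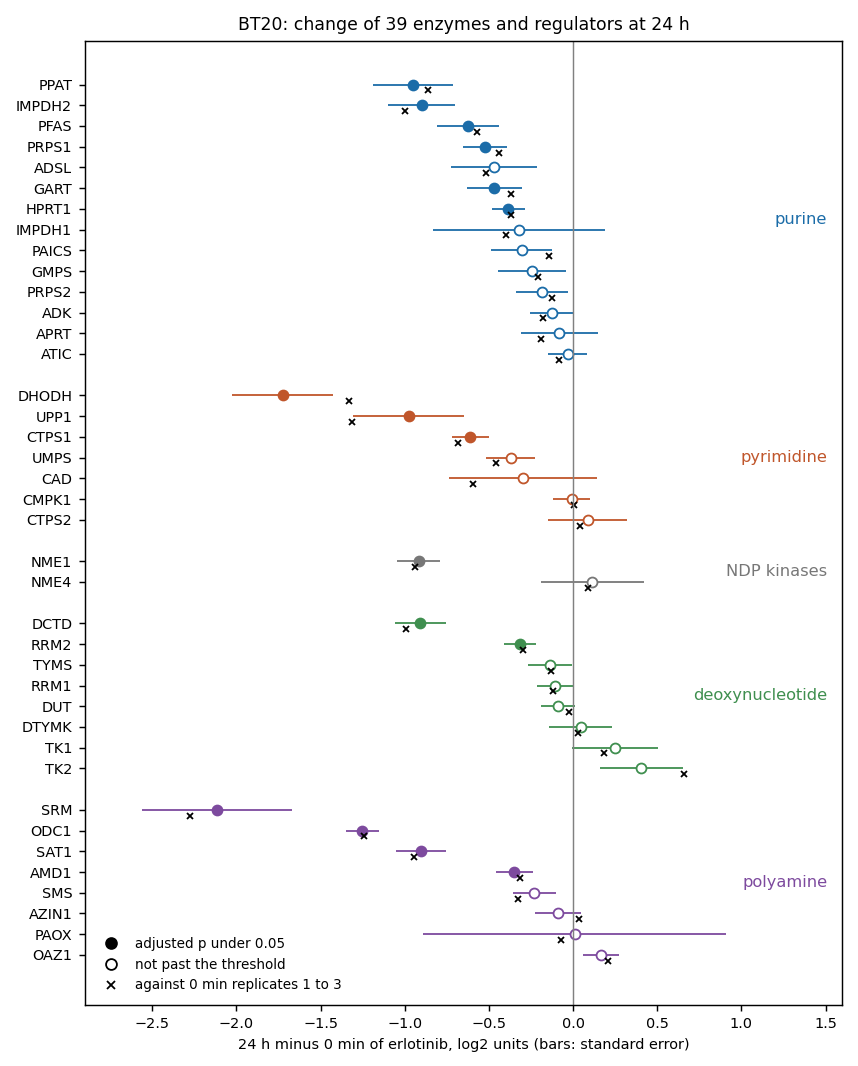
Change of each of the 39 members in BT20 at 24 h of erlotinib against 0 min, in log2 units, ordered by size within each step. Points are estimates and bars their SE, filled points passed adjusted p under 0.05, and crosses give the change against 0 min replicates 1 to 3; all 14 purine members lie left of 0, and SRM lies farthest left at -2.11.

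The polyamine step held the largest and the firmest change of the set at 24 h in BT20. Of its 8 members 4 fell, where 13.9% of all genes fell. ODC1, ornithine decarboxylase, which makes putrescine, had values of 9.41, 9.56 and 9.57 at 24 h, against 10.84, 10.78, 10.64 and 10.79 at 0 min. The groups did not overlap, replicate 4 lay within the other 0 min arrays, and the change was -1.25 ± 0.10 (limma adjusted p = 2.6e-09). SRM, spermidine synthase, had values of 8.46, 8.27 and 8.28 at 24 h, against 10.62, 10.59, 10.63 and 9.95 at 0 min. Replicate 4 was the lowest 0 min array for SRM and still lay above every 24 h array, and the change was -2.11 ± 0.45 (limma adjusted p = 0.000841). SAT1, the spermidine/spermine acetyltransferase that starts polyamine breakdown, had values of 11.04, 10.94 and 10.98 at 24 h, against 11.90, 11.74, 12.15 and 11.77 at 0 min. The arrays did not overlap, and the change was -0.90 ± 0.15 (limma adjusted p = 6.56e-05); when every probe set was tested, all 3 of SAT1 fell, at -1.11 to -0.90.

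AMD1, which makes the decarboxylated S-adenosylmethionine that spermidine and spermine synthases use, fell by 0.35 ± 0.11 (limma adjusted p = 0.018). The spermine synthase SMS changed by -0.23 ± 0.13 (limma adjusted p = 0.187), and against replicates 1 to 3 it fell by 0.33 ± 0.12 (limma adjusted p = 0.0421). OAZ1, the antizyme that sends ornithine decarboxylase to the proteasome, changed by 0.17 ± 0.11, and AZIN1, the antizyme inhibitor, by -0.09 ± 0.14; neither passed the threshold. PAOX, a polyamine oxidase, had a BT20 mean of 3.21 at 0 min, below the level used for testing, so no size is given for its change.

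**Figure D2:**
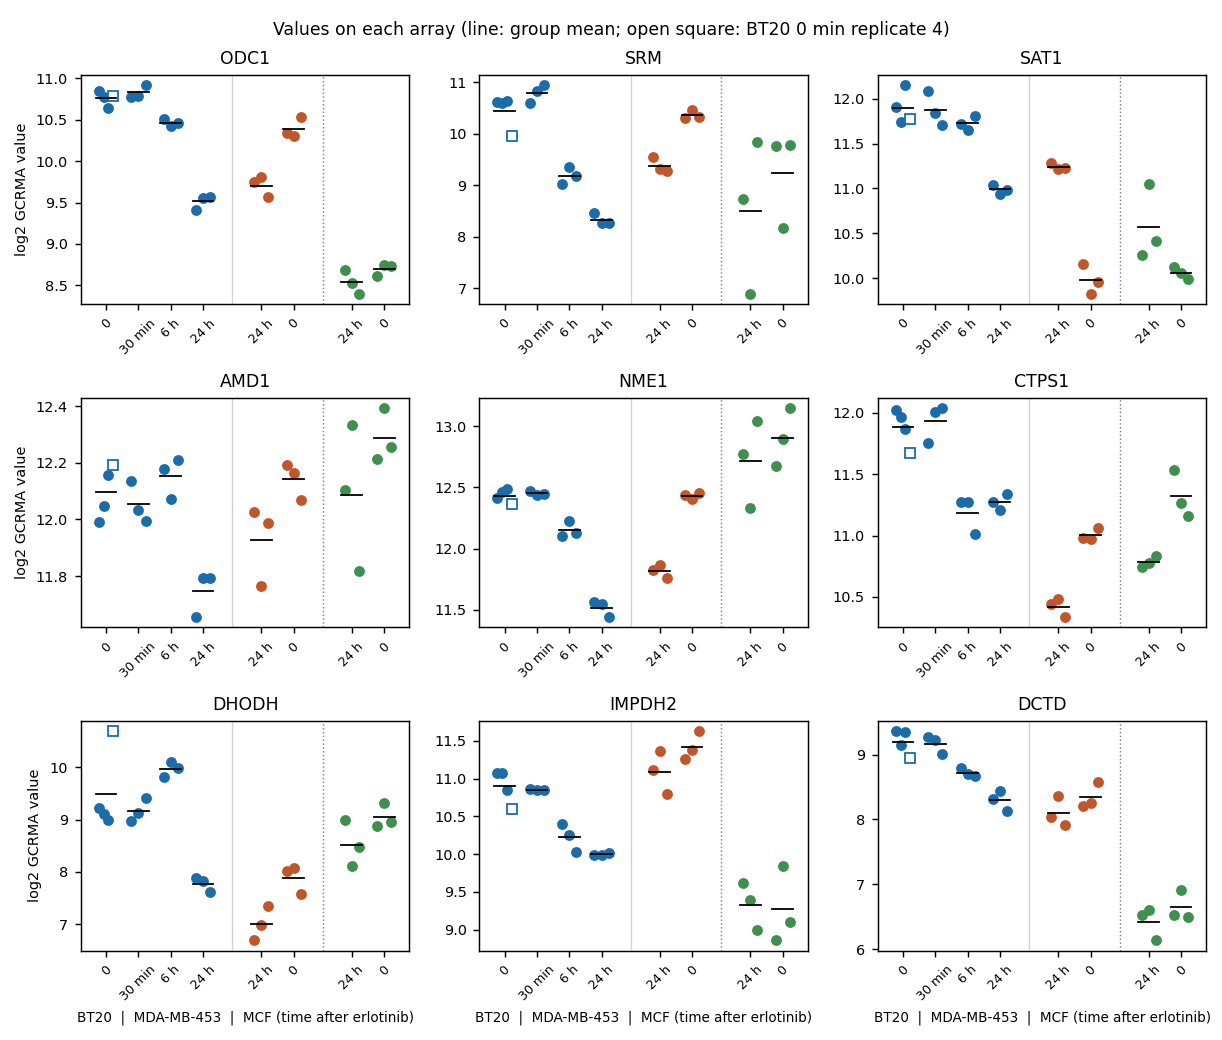
log2 GCRMA value of 9 members on every array, by line and time after erlotinib; black lines are group means and the open square is replicate 4 of BT20 at 0 min. At 24 h ODC1 lies below every 0 min array of the same line in BT20 and MDA-MB-453, while SAT1 lies lower at 24 h in BT20 and higher in MDA-MB-453.

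All 14 purine members were lower at 24 h in BT20, against 5927 of all 12643 genes. Of the 14, 6 passed the test, where 13.9% of all genes fell. PPAT, the amidotransferase that commits ribose phosphate to purine synthesis, had values of 10.33, 10.10 and 10.17 at 24 h, against 10.96, 10.85, 11.37 and 11.41 at 0 min. The groups did not overlap, and the change was -0.95 ± 0.24 (limma adjusted p = 0.00336). Of its 3 probe sets 2 fell, at -1.03 and -0.95. The third, at 0.23, had a mean level of 3.73, below 4. The mean of the probe sets fell by 0.58. IMPDH2, the inosine monophosphate dehydrogenase that opens the branch to guanine nucleotides, had values of 9.99, 9.99 and 10.02 at 24 h, against 11.07, 11.08, 10.85 and 10.60 at 0 min. The 24 h arrays lay close together and below each 0 min array, and the change was -0.90 ± 0.20 (limma adjusted p = 0.00123).

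PFAS, which catalyses the formylglycinamidine step, had values of 10.54, 10.46 and 10.49 at 24 h, against 11.00, 11.02, 11.18 and 11.29 at 0 min, a change of -0.63 ± 0.18 (limma adjusted p = 0.0115). PRPS1, which makes the activated ribose phosphate, fell by 0.52 ± 0.13 (limma adjusted p = 0.00382), and HPRT1, which salvages hypoxanthine and guanine, fell by 0.38 ± 0.10 (limma adjusted p = 0.00361). GART, a protein with 3 activities of the pathway, fell by 0.47 ± 0.16 (limma adjusted p = 0.0332), but against replicates 1 to 3 its change was -0.37 ± 0.17 (limma adjusted p = 0.0897). All 9 GART probe sets were lower and 1 of them fell.

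The other 8 purine members did not pass. Their changes ran from -0.47 ± 0.26 for ADSL, adenylosuccinate lyase (limma adjusted p = 0.182), to -0.03 ± 0.12 for ATIC, the bifunctional enzyme of the last 2 steps to inosine monophosphate. Between them lay IMPDH1, PAICS, GMPS, PRPS2, ADK and APRT, at -0.32 to -0.08. One GMPS probe set rose (0.67) although the one used here was lower by 0.24, so the direction of GMPS, which makes guanosine monophosphate, differed between probe sets.

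Of 7 measured pyrimidine members, 3 fell at 24 h in BT20, where 13.9% of all genes fell. DHODH, the mitochondrial dihydroorotate dehydrogenase, had values of 7.89, 7.82 and 7.62 at 24 h, against 9.22, 9.11, 8.99 and 10.69 at 0 min. The groups did not overlap, replicate 4 stood above the mean of the other 0 min arrays, and the change was -1.73 ± 0.30 with it (limma adjusted p = 0.000129) and -1.33 ± 0.21 without it (limma adjusted p = 3.3e-05). All 3 DHODH probe sets fell, at -1.73 to -1.41. CTPS1, the CTP synthase that is induced in dividing lymphocytes, had values of 11.27, 11.21 and 11.34 at 24 h, against 12.02, 11.97, 11.87 and 11.68 at 0 min. The arrays did not overlap, and the change was -0.61 ± 0.11 (limma adjusted p = 0.000191).

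UPP1, uridine phosphorylase, had values of 9.69, 9.57 and 9.59 at 24 h, against 11.18, 11.22, 10.38 and 9.58 at 0 min. Replicate 4 lay among the 24 h arrays, and the change was -0.98 ± 0.33 with it (limma adjusted p = 0.027) and -1.31 ± 0.29 without it (limma adjusted p = 0.00112). UMPS, which makes uridine monophosphate, changed by -0.37 ± 0.15 (limma adjusted p = 0.0603) and fell by 0.46 ± 0.15 against replicates 1 to 3 (limma adjusted p = 0.019). CAD, the enzyme of the first 3 steps, CTPS2 and the kinase CMPK1 did not pass, at -0.30, 0.09 and -0.01. Another CTPS2 probe set, with a mean level of 8.74 against 8.76 for the one used here, rose by 0.86 ± 0.12 when every probe set was tested (limma adjusted p = 1.56e-05). In that test 5 of the 23 members that did not pass had another probe set that did, ADSL, TYMS and UMPS lower and CTPS2 and GMPS higher.

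NME1, a nucleoside diphosphate kinase that transfers phosphate between nucleotides, had values of 11.56, 11.55 and 11.44 at 24 h, against 12.42, 12.46, 12.49 and 12.37 at 0 min. The groups were separate on every array, replicate 4 included, and the change was -0.92 ± 0.13 (limma adjusted p = 9.19e-06). NME4, its mitochondrial relative, changed by 0.12 ± 0.31. NME2, the near-identical neighbour of NME1, was not analysed here.

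Of the 8 deoxynucleotide members, 2 fell at 24 h in BT20, where 13.9% of all genes fell. DCTD, which deaminates dCMP toward dTMP synthesis, had values of 8.32, 8.44 and 8.13 at 24 h, against 9.36, 9.15, 9.35 and 8.94 at 0 min. The arrays did not overlap, the change was -0.91 ± 0.15 (limma adjusted p = 7.29e-05), and all 3 probe sets fell. RRM2, the ribonucleotide reductase subunit that is tied to S phase, fell by 0.32 ± 0.10 (limma adjusted p = 0.014), with the other RRM2 probe set at 0.03. The large subunit RRM1, thymidylate synthase TYMS, the dUTP pyrophosphatase DUT, thymidylate kinase DTYMK and the cytosolic thymidine kinase TK1 did not pass, at -0.14 to 0.25. TK2, the mitochondrial thymidine kinase, changed by 0.41 ± 0.25 (limma adjusted p = 0.235) and rose by 0.66 ± 0.21 against replicates 1 to 3 (limma adjusted p = 0.0192).

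Changes of related enzymes were set side by side at 24 h in BT20. For 6 pairs the difference of log2 values within each array was compared between 24 h and 0 min by an exact two-sided permutation test over the 3 and 4 arrays, whose smallest possible p is 0.0286. The pairs PRPS1 and PRPS2 (-0.52 and -0.18), IMPDH2 and IMPDH1 (-0.90 and -0.32), CTPS1 and CTPS2 (-0.61 and 0.09, with the other CTPS2 probe set at 0.86), NME1 and NME4 (-0.92 and 0.12), and ODC1 and its catalytically inactive relative AZIN1 (-1.25 and -0.09) each reached that p, 0.0343 after Benjamini-Hochberg adjustment over 6 pairs. In each of these pairs the first member changed more, with no overlap of the arrays. Any pair without overlap reaches this p. The pairs were chosen with earlier results known, and each first member was already among those that fell. The share of other gene pairs without overlap was not computed, so the p-values describe these pairs alone. Of single genes, 5760 of 12643 had no overlap in this comparison. TK1 and TK2 (0.25 and 0.41) gave an exact permutation p = 0.714. In MDA-MB-453 and MCF 3 arrays against 3 cannot go below an exact p of 0.1. In MDA-MB-453 the first of each pair also had the lower change, by -0.02 (PRPS1 and PRPS2) to -0.69 (ODC1 and AZIN1). CTPS1 against CTPS2 gave -0.65 there and -0.85 in MCF. In MCF the IMPDH2 and ODC1 pairs went the other way, at 0.35 and 0.15.

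The promoters of some members that fell, and of some not called, hold the E-box letters CACGTG, the sequence MYC binds with its partner MAX. Windows of 250 bases before to 50 after each RefSeq start (GRCh38.p14) were searched for CACGTG, which reads the same on both strands. Of the 39 members tested, 35 have a window, and IMPDH2, ADSL, AZIN1 and PAOX have none. Of the 35, 7 hold the letters (20.0%): PPAT, PAICS, ATIC, DHODH, NME1, ODC1 and SRM. Of the 10315 genes tested with a window, 12.7% hold it, and of all 35116 windows 7.26%. Of those 7 members, PPAT, DHODH, NME1, ODC1 and SRM fell at 24 h in BT20, and PAICS and ATIC did not pass. ATIC has the letters at positions -46 and 30, and its 24 h change was -0.03. The other members that fell and have a window lack the letters: PFAS, PRPS1, HPRT1, GART, CTPS1, UPP1, DCTD, RRM2, SAT1 and AMD1. The stretches around the letters are shown for the members with the largest change in 4 of the steps, for ODC1, and for PAICS, which shares the PPAT site. They read 5′ to 3′ on the strand of the gene, with the E-box in capitals. SRM at chr1:11060162-11060267 on the minus strand has it at position -199 from its start. ODC1 at chr2:10447986-10448091 on the minus strand has it at positions -29 and 6. DHODH at chr16:72008535-72008640 on the plus strand has it at -159, and PPAT at chr4:56435742-56435847 on the minus strand has it at -182. PAICS at chr4:56435768-56435797 and NME1 at chr17:51153569-51153598, both on the plus strand, have it at positions 41 and 35, past the start.
SRM: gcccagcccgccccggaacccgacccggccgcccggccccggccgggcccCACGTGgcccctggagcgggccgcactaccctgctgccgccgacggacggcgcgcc
ODC1: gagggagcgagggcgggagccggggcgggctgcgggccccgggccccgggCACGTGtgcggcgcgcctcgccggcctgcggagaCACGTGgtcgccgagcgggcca
DHODH: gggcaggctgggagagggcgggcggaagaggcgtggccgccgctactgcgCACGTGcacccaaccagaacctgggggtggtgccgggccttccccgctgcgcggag
PPAT: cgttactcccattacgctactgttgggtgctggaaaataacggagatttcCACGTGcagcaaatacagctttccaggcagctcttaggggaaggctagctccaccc
PAICS: ctgcctggaaagctgtatttgctgCACGTG
NME1: tccgtgcgtgcaagtgctgcgaacCACGTG

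The PPAT and PAICS letters are 1 site, chr4:56435792-56435797, which lies before the start of PPAT and past a start of PAICS. From this PAICS start, 137 bases from that of PPAT, the genes are transcribed away from each other. Other PAICS starts lie at 645 and -25108 bases from that of PPAT, and their windows do not hold the letters. PPAT fell by 0.95 in BT20 at 24 h, while PAICS, which catalyses the carboxylase and ligase steps of the purine pathway, changed by -0.31 ± 0.18 (limma adjusted p = 0.219). The letters TTTCCCGC and TTTGGCGC, forms bound by E2F factors, were searched on both strands and are in windows of 4 of the 35 members (11.4%), PRPS2, GART, TYMS and DUT, against 4.59% of genes tested with a window. Of these 4, GART alone was called at 24 h. The letters CCAAT are in windows of 16 of the 35 (45.7%, against 43.4% of genes tested), and TGACGTCA, the cyclic AMP response element, in 1, UMPS (2.86%, against 3.81%). MYC itself fell by 2.42 ± 0.60 in BT20 at 24 h (limma adjusted p = 0.00357), and by 1.65 ± 0.44 against replicates 1 to 3 (limma adjusted p = 0.00534). At 6 h, when ODC1 and SRM were also called, MYC changed by 0.87 ± 0.60 against 4 arrays (limma adjusted p = 0.272) and by -1.43 ± 0.62 against replicate 4 alone. MYC averaged 8.89 with an SD of 1.58 over the 4 arrays at 0 min, against 9.76 at 6 h and 6.47 at 24 h. Replicate 4 lay above the mean of the other 0 min arrays, so the direction at 6 h depends on that array. At 24 h MYC changed by -1.59 ± 0.65 in MDA-MB-453 (limma adjusted p = 0.191) and by 0.07 ± 0.67 in MCF, neither past the threshold. A match of letters is a description of the window and not a bound site, and a role of MYC in these changes was not tested.

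In BT20 at 30 min 0 of 39 members passed in either direction, against 0.0158% of all genes lower and 0% higher. At an unadjusted limma p under 0.05 there were 0 members, against 2.67% of all genes. The changes ran from -0.33 to 0.36. At 6 h, 9 members fell and 2 rose, against 16.6% and 21.6% of all genes, with a median change of -0.12 against -0.01 for all genes. Against replicate 4 alone, 0 members passed at 6 h, against 1.21% of all genes lower and 1.1% higher. In the fit to BT20 alone, against 4 arrays at 0 min, 12 members fell and 3 rose, against 25.9% and 26.1% of all genes. When every probe set was tested at 6 h, 8 of the 28 members that did not pass had another probe set that did, 4 lower and 4 higher.

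Pyrimidine members made up 4 of the 9 that fell at 6 h. These were 4 of 7 measured, where 16.6% of all genes fell. UPP1 had values of 8.94, 9.08 and 9.24 at 6 h, against 11.18, 11.22, 10.38 and 9.58 at 0 min. The groups did not overlap, but replicate 4 was nearest to the 6 h arrays, and the change was -1.51 ± 0.33 with all 4 (limma adjusted p = 0.00157) and -0.49 ± 0.41 against replicate 4 alone (limma adjusted p = 0.852). CAD had values of 8.12, 8.14 and 8.27 at 6 h, against 9.68, 9.89, 9.43 and 8.48 at 0 min, a change of -1.19 ± 0.44 (limma adjusted p = 0.038) and of -0.30 ± 0.63 against replicate 4. UMPS had values of 10.94, 10.88 and 10.49 at 6 h, against 11.70, 11.68, 11.46 and 11.26 at 0 min, a change of -0.76 ± 0.15 (limma adjusted p = 0.000678) and of -0.49 ± 0.21 against replicate 4.

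CTPS1 had values of 11.27, 11.27 and 11.02 at 6 h, against 12.02, 11.97, 11.87 and 11.68 at 0 min. It lay below every 0 min array at 6 h, with a change of -0.70 ± 0.11 (limma adjusted p = 0.000121) and of -0.49 ± 0.15 against replicate 4 alone (limma adjusted p = 0.128). DHODH was at 9.81, 10.10 and 9.99 at 6 h, between replicates 1 to 3 and replicate 4 of 0 min, and its 3 probe sets ran from -1.90 to 0.47 at that time.

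In the polyamine step, SRM had values of 9.02, 9.35 and 9.19 at 6 h, against 10.62, 10.59, 10.63 and 9.95 at 0 min, a change of -1.26 ± 0.45 (limma adjusted p = 0.0309) and of -0.77 ± 0.68 against replicate 4. ODC1 was at 10.50, 10.42 and 10.46 at 6 h, with a change of -0.30 ± 0.10 (limma adjusted p = 0.0197) and a similar one of -0.33 ± 0.14 against replicate 4 alone (limma adjusted p = 0.399). Over the 4 times ODC1 averaged 10.76, 10.83, 10.46 and 9.51. DCTD had values of 8.79, 8.70 and 8.67 at 6 h, against 9.36, 9.15, 9.35 and 8.94 at 0 min, a change of -0.48 ± 0.15 (limma adjusted p = 0.0164) and of -0.22 ± 0.22 against replicate 4.

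Purine members were called in both directions at 6 h. IMPDH2 had values of 10.40, 10.25 and 10.02 at 6 h, against 11.07, 11.08, 10.85 and 10.60 at 0 min, and fell by 0.67 ± 0.20 (limma adjusted p = 0.0113). ATIC had values of 11.76, 11.76 and 11.49 at 6 h, against 12.05, 12.12, 11.99 and 11.85 at 0 min, and fell by 0.33 ± 0.12 (limma adjusted p = 0.0323). PAICS had values of 12.48, 12.50 and 12.70 at 6 h, against 11.95, 11.76, 11.71 and 12.44 at 0 min, and rose by 0.60 ± 0.18 (limma adjusted p = 0.0133). GART had values of 11.39, 11.51 and 11.60 at 6 h, against 10.89, 10.76, 11.15 and 11.32 at 0 min, and rose by 0.47 ± 0.16 (limma adjusted p = 0.0285). Replicate 4 was the highest 0 min array for PAICS and GART and the lowest for IMPDH2 and ATIC. Against it alone the changes were smaller and none passed: -0.37 ± 0.29 for IMPDH2, -0.18 ± 0.17 for ATIC, 0.12 ± 0.23 for PAICS and 0.18 ± 0.23 for GART. For both genes that rose, another probe set was lower at 6 h, at -0.19 for PAICS and down to -0.37 for GART. That GART probe set had a mean level of 3.96, below 4. Of the others, one with a mean level of 7.78 was at -0.31, and one with 10.45 was at -0.004. IMPDH2, CTPS1, UPP1, DCTD, ODC1 and SRM were called lower at 6 h and at 24 h, in comparisons that share the 0 min arrays.

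**Figure D3:**
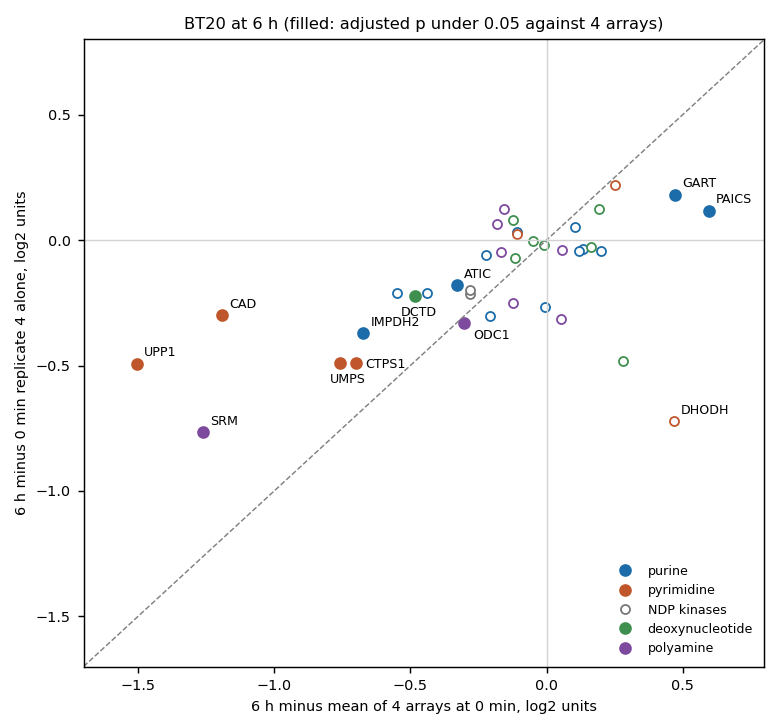
Change of the 39 members in BT20 at 6 h, in log2 units, against the mean of 4 arrays at 0 min (horizontal) and against replicate 4 alone (vertical), coloured by step; filled points passed adjusted p under 0.05 against 4 arrays and the dashed line marks equal values. UPP1, SRM and CAD lie at -1.51 to -1.19 on the horizontal axis and at -0.77 to -0.30 on the vertical one.

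In MDA-MB-453 at 24 h, 3 members fell and 1 rose, against 1.55% and 4.22% of all genes. Of the 39, 31 were lower, against 5844 of all 12643 genes (median -0.19, against 0.02 for all genes). SAT1 had values of 11.28, 11.21 and 11.23 at 24 h, against 10.16, 9.83 and 9.96 at 0 min. All 24 h arrays lay above all 0 min arrays, and the change was 1.26 ± 0.16 (limma adjusted p = 2.39e-05); all 3 SAT1 probe sets rose, at 1.26 to 1.63. ODC1 had values of 9.75, 9.80 and 9.56 at 24 h, against 10.34, 10.30 and 10.54 at 0 min, without overlap, a change of -0.69 ± 0.10 (limma adjusted p = 0.000199). NME1 had values of 11.83, 11.87 and 11.76 at 24 h, against 12.44, 12.41 and 12.45 at 0 min. Its groups were also separate, with a change of -0.61 ± 0.14 (limma adjusted p = 0.00765). CTPS1 had values of 10.44, 10.48 and 10.34 at 24 h, against 10.98, 10.97 and 11.06 at 0 min, without overlap and with a change of -0.59 ± 0.12 (limma adjusted p = 0.00331). In a fit to the MDA-MB-453 arrays alone, all 4 passed again (limma adjusted p = 0.00342 to 0.0176), SRM also fell and TK2 also rose, which made 4 and 2 members, against 2.64% and 5.66% of all genes. SRM changed by -0.99 (limma adjusted p = 0.315 in the fit to all arrays and 0.00587 in that alone) and TK2 by 0.61 (0.23 and 0.0203).

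In MCF at 24 h, 0 of 39 members passed in a limma fit to its 6 arrays, in which 1 gene in all was called (0.00791% lower, 0% higher). At an unadjusted limma p under 0.05 there were 3 of 39 members, all lower (DUT, CTPS1 and PRPS1), against 5.82% of all genes in either direction. DUT had values of 12.74, 12.71 and 12.62 at 24 h, against 13.20, 13.23 and 13.15 at 0 min, a change of -0.50 ± 0.14 (limma adjusted p = 0.537). CTPS1 had values of 10.75, 10.77 and 10.83 at 24 h, against 11.54, 11.27 and 11.16 at 0 min, a change of -0.54 ± 0.16 (limma adjusted p = 0.62). Neither pair of groups overlapped. In the fit to all 25 arrays 4 members fell (PRPS1, CTPS1, RRM1 and DUT), against 2.02% of all genes. The median residual SD per gene was 0.316 in MCF, against 0.194 in BT20 and 0.169 in MDA-MB-453. ODC1 was at 8.69, 8.53 and 8.40 at 24 h, against 8.61, 8.74 and 8.74 at 0 min in MCF, so its arrays overlapped, and SRM ran from 6.90 to 9.85 at 24 h, against 8.17 to 9.78 at 0 min.

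**Figure D4:**
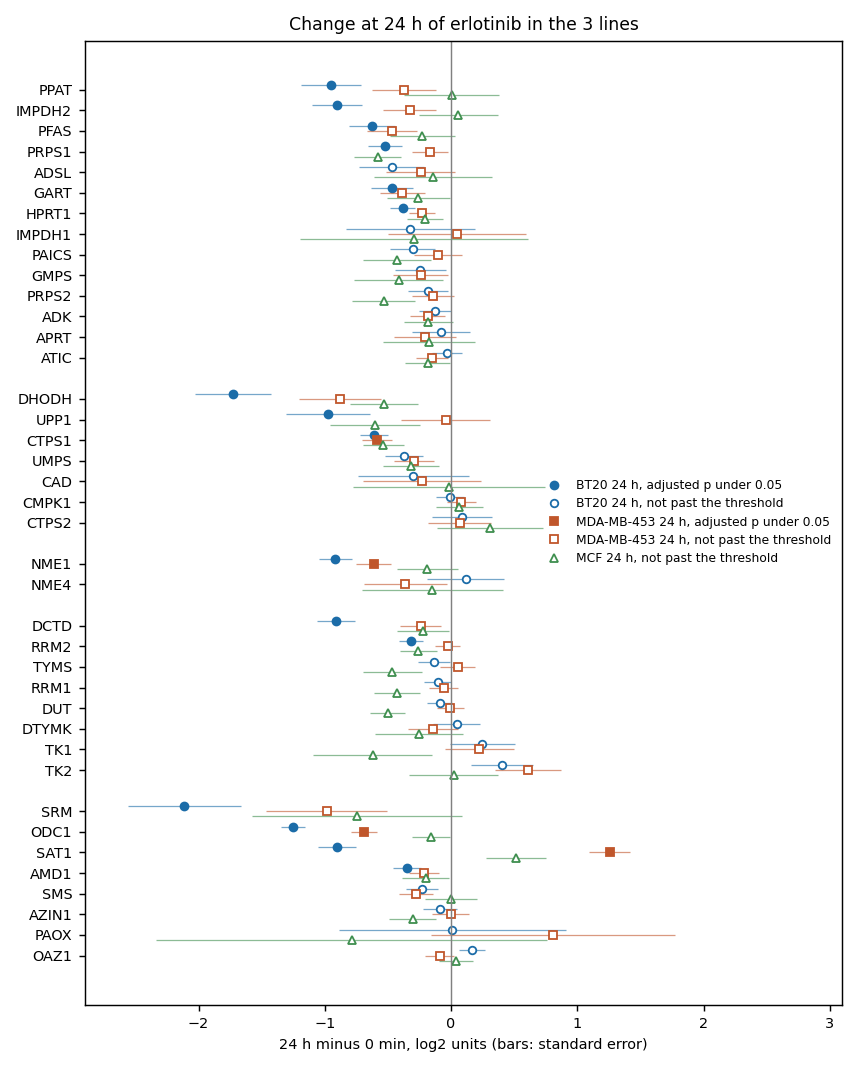
Change of the 39 members at 24 h of erlotinib against 0 min of the same line, in log2 units with SE bars, for BT20 (circles), MDA-MB-453 (squares) and MCF (triangles); filled symbols passed adjusted p under 0.05. SAT1 lies at -0.90 in BT20 and at 1.26 in MDA-MB-453, and CTPS1 lies between -0.61 and -0.54 in the 3 lines.

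The 24 h changes were compared between lines in a limma fit with array weights per line. Between BT20 and MDA-MB-453, 4 members had a lower change in BT20 and 0 a higher one, against 10.6% and 11.6% of all genes: SAT1, SRM, DCTD and ODC1. SAT1 moved in opposite directions, and its change was lower in BT20 by a difference of -2.16 ± 0.17 (limma adjusted p = 3.6e-09). ODC1 fell in both lines, with a difference of -0.56 ± 0.12 (limma adjusted p = 0.00165), and DCTD gave a difference of -0.67 ± 0.19 (limma adjusted p = 0.012). SRM gave -1.13 ± 0.37 (limma adjusted p = 0.0308), a call that ends with no array weights (limma adjusted p = 0.316). When each change and its SE were taken from a limma fit to its own line, all 4 passed (t test of the difference, adjusted p = 2.09e-08 to 0.0248). Against replicates 1 to 3 of BT20 the number was 7 (14.5% of all genes), with IMPDH2, UPP1 and NME1 added. UPP1 averaged 2.12 at 0 min and 2.07 at 24 h in MDA-MB-453, below 4, so a fall could not be seen there. Its difference therefore reflects the change in BT20 alone.

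Between BT20 and MCF, 3 members had a lower change in BT20 and 0 a higher one, against 2.6% and 4.97% of all genes. SAT1, at 0.51 ± 0.24 in MCF, gave a difference of -1.42 ± 0.27 (limma adjusted p = 0.00136), and ODC1 gave -1.09 ± 0.20 (limma adjusted p = 0.000893). NME1 gave -0.73 ± 0.20 (limma adjusted p = 0.0225). With each change and its SE from a limma fit to its own line, SAT1 and ODC1 passed (t test of the difference, adjusted p = 0.00787 and 0.00257). NME1 did not (adjusted p = 0.137 in the same t test). CTPS1 gave differences of -0.02 ± 0.14 between BT20 and MDA-MB-453 and of -0.07 ± 0.22 between BT20 and MCF, neither past the threshold. Of the 39 members, 26 (66.7%) were lower at 24 h in all 3 lines and 2, CTPS2 and TK2 (5.13%), were higher in all 3, against 20.0% and 22.4% of all genes tested.

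At 0 min, 17 members were higher and 5 lower in BT20 than in MDA-MB-453, against 32.6% and 34.1% of all genes (limma adjusted p under 0.05). In a fit without the MCF arrays 22 were higher and 9 lower, against 36.7% and 37.9% of all genes. UPP1 had values of 11.18, 11.22, 10.38 and 9.58 in BT20, against 1.70, 2.42 and 2.22 in MDA-MB-453. The MDA-MB-453 values are below 4, so UPP1 was high in BT20 and under the level used for testing in MDA-MB-453, and the size of the difference is inexact. SAT1 had values of 11.90, 11.74, 12.15 and 11.77 in BT20, against 10.16, 9.83 and 9.96 in MDA-MB-453, a difference of 1.91 ± 0.15 (limma adjusted p = 3.34e-10). At 24 h SAT1 was at 10.94 to 11.04 in BT20, against 11.21 to 11.28 in MDA-MB-453, so the order of the lines was the other way round on every array. PRPS1 had values of 11.06, 10.88, 10.95 and 11.28 in BT20, against 9.45, 9.22 and 9.36 in MDA-MB-453, a difference of 1.70 ± 0.13 (limma adjusted p = 3.02e-10).

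DHODH (1.61 ± 0.30), TK2 (1.41 ± 0.25) and UMPS (1.05 ± 0.15) were also higher in BT20 at 0 min, and without replicate 4 the differences were 1.21, 1.15 and 1.14. The thymidylate genes DTYMK and TYMS were higher by 0.95 ± 0.18 and 0.94 ± 0.13, with all BT20 arrays above all MDA-MB-453 arrays, and the adenine salvage enzyme APRT by 0.89 ± 0.23. PAOX had values of 3.27, 3.35, 3.24 and 2.96 in BT20, against 6.17, 6.18 and 4.50 in MDA-MB-453; it was below 4 on every BT20 array. The other members lower in BT20 were IMPDH2, NME4, DUT and OAZ1, at -0.84 to -0.25. IMPDH2 does not pass against replicates 1 to 3 (limma adjusted p = 0.0745).

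Beyond the members, 45 of 58 other genes of the same pathways were tested, and 6 fell and 3 rose at 24 h in BT20, 13.9% and 18.9% being the shares of all genes. Against replicates 1 to 3 of 0 min, 9 fell and 5 rose, where 15.4% and 21.3% of all genes did. The largest statistic was that of SAMHD1, which degrades deoxynucleotides and rose by 0.99 ± 0.11 (limma adjusted p = 4.94e-07). MTAP, which recovers the methylthioadenosine left by polyamine synthesis, fell by 0.70 ± 0.14 (limma adjusted p = 0.000558), and MRI1, the next enzyme of that salvage route, fell by 0.58 ± 0.15 (limma adjusted p = 0.00434). PNP, purine nucleoside phosphorylase, fell by 0.69 ± 0.16 (limma adjusted p = 0.00256), and DOHH, which completes the spermidine-derived hypusine on the translation factor eIF5A, fell by 1.01 ± 0.29 (limma adjusted p = 0.00894). GMPR, GMP reductase, was at a mean of 2.53 at 24 h and 3.01 at 0 min, below 4 in both. In MDA-MB-453 1 of the 45 fell, PNP, and 0 rose, against 1.55% and 4.22% of all genes. In MCF 0 passed, against 0.00791% of all genes lower and 0% higher. At 30 min 0 passed, against 0.0158% lower and 0% higher. At 6 h 12 fell and 5 rose against 4 arrays at 0 min, where 16.6% and 21.6% of all genes did. No count is given here against replicate 4 alone, which is 1 array. The SAMHD1 change was higher in BT20 than in MDA-MB-453 by 1.09 ± 0.14 (limma adjusted p = 4.57e-06) and than in MCF by 1.14 ± 0.22 (limma adjusted p = 0.00196).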

How the data were processed

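Total RNA from 25 samples was measured on Affymetrix arrays. The deposited values are on a log2 scale per probe set and were made by the authors with GCRMA 2.20.0 in R 2.11.1, per the submitters' processing notes. GCRMA removes a background estimated from probe sequence, brings arrays to a common distribution and reduces the probes of a set to a single value; whether both parts were normalized together is not given in the sources used here, and high values may be compressed. The probes of the array limit which transcript forms are read, and the number of arrays limits the precision.

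The tests ran in R 4.3.3 with limma 3.58.1 and no further scaling. Of 54613 probe sets, 41091 carried 1 gene symbol in the platform annotation, 1801 several and 11721 none. Each gene was represented by the 1-symbol probe set with the highest mean over 25 arrays (19775 genes), and 12643 genes that exceeded 4 on 3 arrays or more entered the tests. The fit had 8 group means and 17 residual degrees of freedom. For MCF the 6 arrays were fitted alone because they spread more, and line differences used array weights per line. Each test was two-sided, called at Benjamini-Hochberg adjusted p under 0.05 over 12643 genes, and checked on simulated data in which each gene and line kept its own spread. There the fit to all arrays made somewhat more false calls than the threshold allows, most in MDA-MB-453, the line differences did so too, most of all against MCF, and the fit to MCF alone found none of the changed genes. Counts from fits that leave out the other lines are therefore given beside those at 6 h, 24 h and 0 min. For up to 10 called members per comparison without overlap and with the largest change, values are given on every array; other members are given by their change. Of the other pathway genes, those called in BT20 at 24 h with the smallest p, at most 6, are named. The members, lists and rules were chosen with earlier results of these data known.

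Alternatives changed the filter, the probe set choice, the empirical Bayes step, the scaling, the weights, the arrays fitted, replicate 4, a replicate block and each replicate in turn. Separate fits per line for the line differences were chosen after seeing the data. Promoter windows are from RefSeq on GRCh38.p14. One marker listed for a line is not reported here.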

Additional observations from a re-analysis of the deposited data

Results flagged for a closer look

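At 0 min in BT20, 6 of 39 members (15.4%) had 1 array that stood apart by Dixon's test. Its gap to its nearest neighbour, as a share of the range of the 4 arrays, exceeded the limit of that test. Chance gives about 1 in 20 groups when the arrays are alike and the genes independent. The share over all genes was not computed, so the count is not read as a trait of these members. In 5 of the 6 the array was replicate 4, which differed from the other 0 min arrays over all genes tested (r = 0.971 to 0.975). It was high for TK2 (gap of 0.977 of the range) and DHODH (0.867) and low for SRM (0.942), SMS (0.884) and APRT (0.874). The exception was GMPS, in which replicate 3 was low (0.956).

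The change at 24 h differed between lines, by the test of the difference itself, for the following members. Between BT20 and MDA-MB-453 the difference was -2.16 for SAT1, -1.13 for SRM, -0.67 for DCTD and -0.56 for ODC1. Between BT20 and MCF it was -1.42 for SAT1, -1.09 for ODC1 and -0.73 for NME1. For SAT1 the 24 h arrays lay below the 0 min arrays in BT20 and above them in MDA-MB-453 and in MCF.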

How the results depend on the processing

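Among the up to 10 called members named per comparison, none changed direction under any alternative run. Other members did. Of all 39 in BT20, 27 at 30 min, 26 at 6 h and 36 at 24 h kept their sign with the term for replicate 4. The 10 members named for BT20 at 24 h and the 4 for MDA-MB-453 passed under each alternative, as did SAT1, DCTD and ODC1 for BT20 against MDA-MB-453 and SAT1 and ODC1 for BT20 against MCF. The exceptions lie elsewhere, and where no value shows the cause it was not tested. At 6 h the number of members called was 11, against 0 when 6 h was measured against replicate 4 alone (1 array) and 3 to 14 with each replicate left out: 5 without replicate 1 and 7 without replicate 2 of 0 min, 7 without replicate 2 and 3 without replicate 3 of 6 h. CAD lost its call at 6 h in 9 of 18 alternatives, SRM in 7, GART in 6 and ATIC in 5. In MDA-MB-453 the number was 4, against 7 with the mean of probe sets and 7 with the replicate block, and 4 to 4 with each replicate left out. In MCF it was 0, against 4 in the fit to all 25 arrays, and 0 to 0 with each replicate left out. For BT20 against MDA-MB-453 it was 4, against 7 with the term for replicate 4 or without that array, and 3 to 7 over the replicates; the SRM difference lost its call in 10 of 25 alternatives. For BT20 against MCF it was 3, against 5 with the mean of probe sets, 5 with no array weights and 6 with the replicate block, and 2 to 4 over the replicates; NME1 lost its call in 5 of 25 alternatives. At 24 h in BT20 the number stayed at 13 to 18 over the replicates, at 30 min at 0 to 0, and at 0 min between the lines at 19 to 25, where PAOX lost its call without replicate 1 or 2 of MDA-MB-453. With the mean of probe sets UMPS was 0.63 and TYMS 1.68 higher in BT20 at 0 min. The replicate block moved the counts of members named here and no other count of members by over 1.5 times. Samples that share a replicate number had correlations of their deviations from the group means between -0.642 and 0.796, with at least 1 negative pair in each comparison, so the block is an alternative alone. Over all genes, 30 min gave 2 calls, against 1 with replicate 4 left out and 0 without any 1 of the 30 min arrays. MDA-MB-453 gave 196 lower and 534 higher calls, against 534 and 1071 with array weights and 330 and 780 with the replicate block. MCF gave 1 call, lower, against 7 lower and 1 higher with quantile normalization repeated and 256 lower and 148 higher in the fit to all arrays. BT20 against MCF gave 329 lower and 628 higher calls, against 701 and 1248 without weights, 541 and 1070 with the replicate block, 487 and 957 without replicate 4, 172 and 337 without MCF 0 min replicate 3 and 162 and 293 without MCF 24 h replicate 1. Testing every probe set raised the count of calls in the comparisons of BT20 and MDA-MB-453 because more features were tested. Array weights were not run for MCF alone, which holds 1 line. Values below 4 limit the size of differences for PAOX, UPP1, GMPR, DUSP6 and SPRY4.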
